A study of Mus musculus with 6 samples.

Results

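Erythroid cells in single-cell libraries of mouse gonads were followed over 5 developmental stages, from E10.5 to E14.5. They were chosen by their globin content. In the libraries of E10.5 to E14.5, a cell barcode counted as erythroid if mitochondrial genes held at most 10% of its unique molecular identifiers (UMIs, each standing for 1 captured transcript), if it had at least 500 UMIs, and if genes whose symbols start with Hba- or Hbb- held at least 20% of them. No minimum number of genes was set. The rule found 123, 83, 34, 59 and 114 cells at E10.5, E11.5, E12.5, E13.5 and E14.5, in all 413 of the 21510 barcodes of these libraries that passed the first 2 limits. The study set single-cell transcriptomes of gonads in vivo beside those of somatic cells derived in culture. The 5 in vivo libraries came from XX gonads of ICR mice at E10.5, E11.5, E12.5, E13.5 and E14.5, dissociated with papain. A sixth library held somatic cells made in culture from embryonic stem cells of a 129svj x C57BL/6J background, harvested on day 6, and none of its 7524 barcodes within the limits met the globin rule (0 of 7524, which allows a share of up to 0.0399%). Each stage was 1 library, and how many embryos were pooled for it is not given in the sources used here. Stage and library therefore cannot be told apart, no p-value was computed, and all intervals are 95% intervals that cover counting error only.

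Red cells of the mouse embryo are made in successive waves. Primitive erythroid cells arise in the yolk sac, enter the blood while still nucleated and finish their maturation there, with the embryonic globins encoded by Hba-x, Hbb-bh1 and Hbb-y beside the adult alpha-type globin. Definitive cells, made in the fetal liver, use the adult alpha-type genes Hba-a1 and Hba-a2 and the adult beta-type genes Hbb-bs and Hbb-bt, and leave the liver as enucleated reticulocytes. As erythroid cells mature they stop dividing, condense or lose the nucleus, clear mitochondria and ribosomes, and keep a narrowing set of transcripts dominated by globin.

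Erythroid cells made up 1.95%, 3.04%, 1.04%, 1.27% and 2.51% of passing barcodes in stage order, with intervals of 1.62 to 2.32, 2.43 to 3.75, 0.720 to 1.45, 0.967 to 1.63 and 2.07 to 3.00. The shares were highest at E11.5 and lowest at E12.5, and the intervals of those stages did not overlap. The globin limit fell in a nearly empty stretch: 0, 1, 1, 3 and 9 barcodes had 10% to 20% globin at E10.5, E11.5, E12.5, E13.5 and E14.5. The lowest members were at 24.0%, 26.5%, 76.7%, 22.4% and 21.1% globin in stage order, and the highest barcodes outside the rule at 6.54%, 17.5%, 11.7%, 17.5% and 19.2%. Of the members, 4, 2, 3, 4 and 7 carried a barcode sequence that also occurred in another library.

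The label was checked on genes that the rule did not use. A list of 7 non-globin erythroid markers, of which 6 were in the files (Alas2, Slc4a1 and Klf1 among them), summed to 4856, 8829, 9960, 6372 and 7943 counts per 1000000 (CPM) of non-globin UMIs in members at E10.5, E11.5, E12.5, E13.5 and E14.5, against 2.23 to 6.91 CPM in the rest of the same libraries. At E12.5 all 43 listed markers of leukocytes, endothelium, gonadal supporting cells and gonadal stroma were at 0 in the members, while megakaryocyte markers had 4 UMIs in 4 cells (70.8 CPM, against 18.3 CPM in the rest) and germ cell markers 3 UMIs in 3 cells (53.1 CPM, against 838 CPM). The other stages were less clean. At least 2 of the listed markers of other cell types were held by 24, 12, 0, 17 and 40 members at E10.5, E11.5, E12.5, E13.5 and E14.5, and these barcodes carried 30.7%, 29.4%, 0%, 53.6% and 76.7% of the members' non-globin UMIs. Under 50% globin were 36, 5, 0, 3 and 9 members, with 41.0%, 16.2%, 0%, 16.4% and 52.4% of those UMIs. Germ cell markers summed to 945 CPM in the E14.5 members, against 1350.1 CPM in the rest of that library, and endothelial markers to 337 CPM, with 43 of their 47 UMIs in 1 barcode. Levels and list counts of maturation genes that rest on the E14.5 sum are therefore also given without the marker-holding barcodes, and their part in the results was not tested beyond that.

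The globin genes lie in clusters on chromosomes 7 (beta type) and 11 (alpha type). The 130 bases before the start of the main embryonic and the main adult gene of each cluster are printed because the shift between these genes is the clearest difference between stages. The sequences are from RefSeq on GRCm38.p6, 5′ to 3′ on the gene's own strand, and capitals mark 3 short motifs on either strand: CACCC, which KLF1 is known to bind, CCAAT, which NF-Y is known to bind, and GATAA, a core of GATA factor sites.
Hbb-y, chr7:103853208-103853337, minus strand: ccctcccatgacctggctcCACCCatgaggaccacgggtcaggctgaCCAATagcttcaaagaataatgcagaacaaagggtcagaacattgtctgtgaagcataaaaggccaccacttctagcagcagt
Hbb-bs, chr7:103827929-103828058, minus strand: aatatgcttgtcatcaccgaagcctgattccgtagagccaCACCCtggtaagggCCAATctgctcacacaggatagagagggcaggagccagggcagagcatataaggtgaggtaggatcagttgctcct
Hba-x, chr11:32276470-32276599, plus strand: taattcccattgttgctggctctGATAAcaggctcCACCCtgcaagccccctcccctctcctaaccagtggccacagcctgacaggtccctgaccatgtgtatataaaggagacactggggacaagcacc
Hba-a1, chr11:32283542-32283671, plus strand: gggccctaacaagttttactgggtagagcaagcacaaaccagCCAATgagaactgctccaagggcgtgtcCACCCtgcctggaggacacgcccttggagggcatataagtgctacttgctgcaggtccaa
All 4 windows hold 1 CACCC, 3 hold 1 CCAAT, and the Hba-x window holds 1 GATAA and no CCAAT. In Hbb-y the CACCC and the CCAAT start 111 and 83 bases before the gene, and in Hbb-bs 90 and 76 bases before it. The same order, CACCC farther out than CCAAT, is reversed in Hba-a1, where CCAAT starts 88 and CACCC 60 bases before the gene. Of 32851 mouse promoters in the same table, 33.7% hold CACCC, 22.4% CCAAT and 11.4% GATAA in a window of the same length, so single matches are common. The embryonic windows thus do not differ from the adult ones in holding CACCC, and these letters say nothing about which factor was bound.

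Among beta-type transcripts, the embryonic genes gave way to the adult ones between E12.5 and E14.5. Hbb-y, the main embryonic beta-type globin, held 75.7%, 82.9%, 83.6%, 52.9% and 8.87% of the members' Hbb- UMIs in stage order. Hbb-bs, the main adult gene, held 0.845%, 6.11%, 10.1%, 36.4% and 74.8%. Hbb-bt, its neighbour and near-identical in its coding part, held 0.641%, 4.38%, 3.60%, 10.3% and 16.3%. The adult pair was lowest at E10.5 and highest at E14.5, with the widest step between E13.5 and E14.5. Together they made up 1.49% (1.45 to 1.52), 10.48% (10.4 to 10.6), 13.7% (13.6 to 13.9), 46.7% (46.5 to 46.9) and 91.1% (91.0 to 91.2) of Hbb- UMIs. Hbb-bh1, the earliest embryonic beta-type gene, was highest at the first stage: it held 22.8%, 6.61%, 2.66%, 0.351% and 0.0283% in stage order. Hbb-bh2 had 3 UMIs, all at E11.5.

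Among alpha-type transcripts the adult genes held a large share from the first stage on. Hba-x, the embryonic alpha-type gene, held 52.2%, 33.6%, 20.8%, 5.13% and 1.57% of Hba- UMIs in stage order. The adult genes together held 47.8%, 66.4%, 79.2%, 94.9% and 98.4%, nearly all of it Hba-a1. At E10.5, then, adult genes already made up close to as many alpha-type UMIs as the embryonic gene, while they made up 1.49% of beta-type UMIs. Hba-a2, whose transcript is nearly identical to that of Hba-a1, held 0.158%, 0.260%, 0.347%, 3.88% and 3.72% of Hba- UMIs. The reads of this pair, like those of Hbb-bs and Hbb-bt, may have been assigned to either gene by the counting. The Hba-a2 share also differed within a library: at E13.5 it was 4.38% in cells with adult-type beta transcripts and 3.52% in cells with embryonic ones, and at E14.5 it was 3.82% and 2.41%. The difference between libraries was larger. In cells with embryonic beta transcripts alone, Hba-a2 held 0.158%, 0.257%, 0.339%, 3.52% and 2.41% in stage order. The cause of this step between the E12.5 and E13.5 libraries was not tested. The ratio of Hba- to Hbb- UMIs was 0.546, 0.567, 0.627, 0.725 and 0.723 in stage order.

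**Figure D1:**
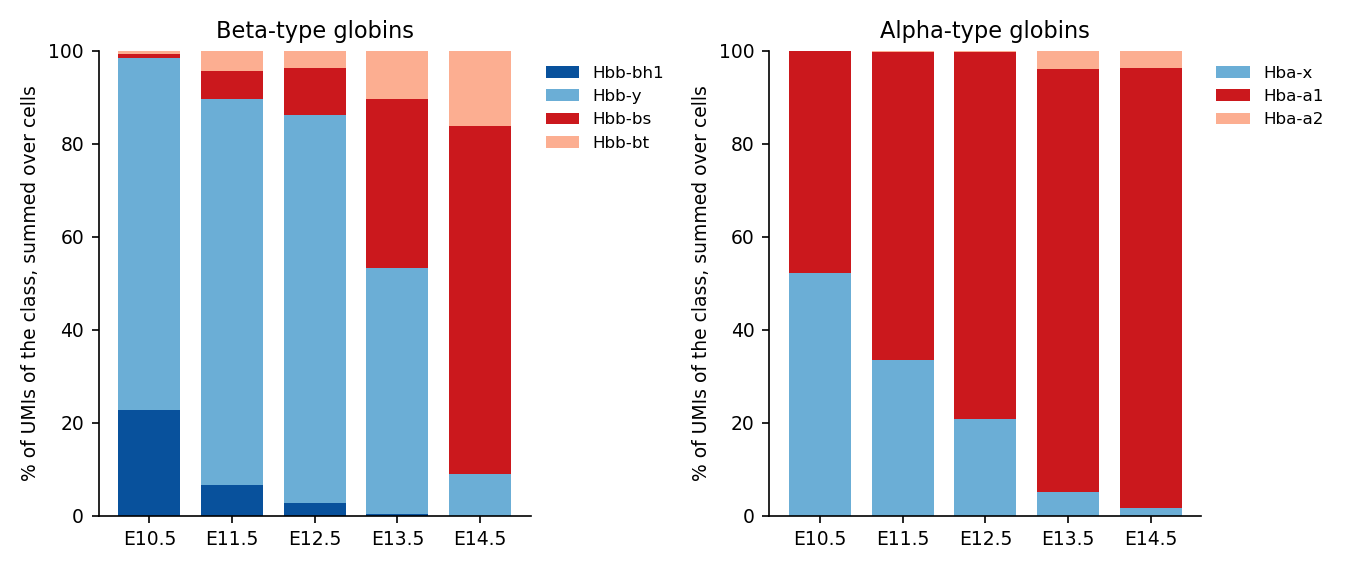
Share of each globin gene among the members' alpha-type and beta-type UMIs at each stage, in percent. Adult beta-type genes held 1.49% at E10.5 and 91.1% at E14.5, whereas adult alpha-type genes held 47.8% already at E10.5.

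In single cells the beta-type shift had 2 separate levels at E13.5 and E14.5. Cells in which Hbb-bs and Hbb-bt held under 20% of Hbb- UMIs are called the embryonic range, and cells over 80% the adult range. These are ranges of a measured share, not cell types. The embryonic range held 123, 80, 32, 30 and 13 cells at E10.5, E11.5, E12.5, E13.5 and E14.5, and the adult range 0, 0, 0, 28 and 101. Between the limits lay 0, 3, 2, 1 and 0 cells. Of the members, 47.5% (34.3 to 60.9) were in the adult range at E13.5 and 88.6% (81.3 to 93.8) at E14.5. For the 0 of 123 at E10.5, a floor of 3 counts allows a share of up to 2.44%. No cell at any stage had a share within 5 points of 80%, and 0, 13, 12, 5 and 0 cells lay within 5 points of 20%. The gap between the levels was wide: the highest cell under 50% was at 11.47%, 24.1%, 25.1%, 25.7% and 10.45% in stage order, and the lowest over 50% was at 99.9% at both later stages.

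**Figure D2:**
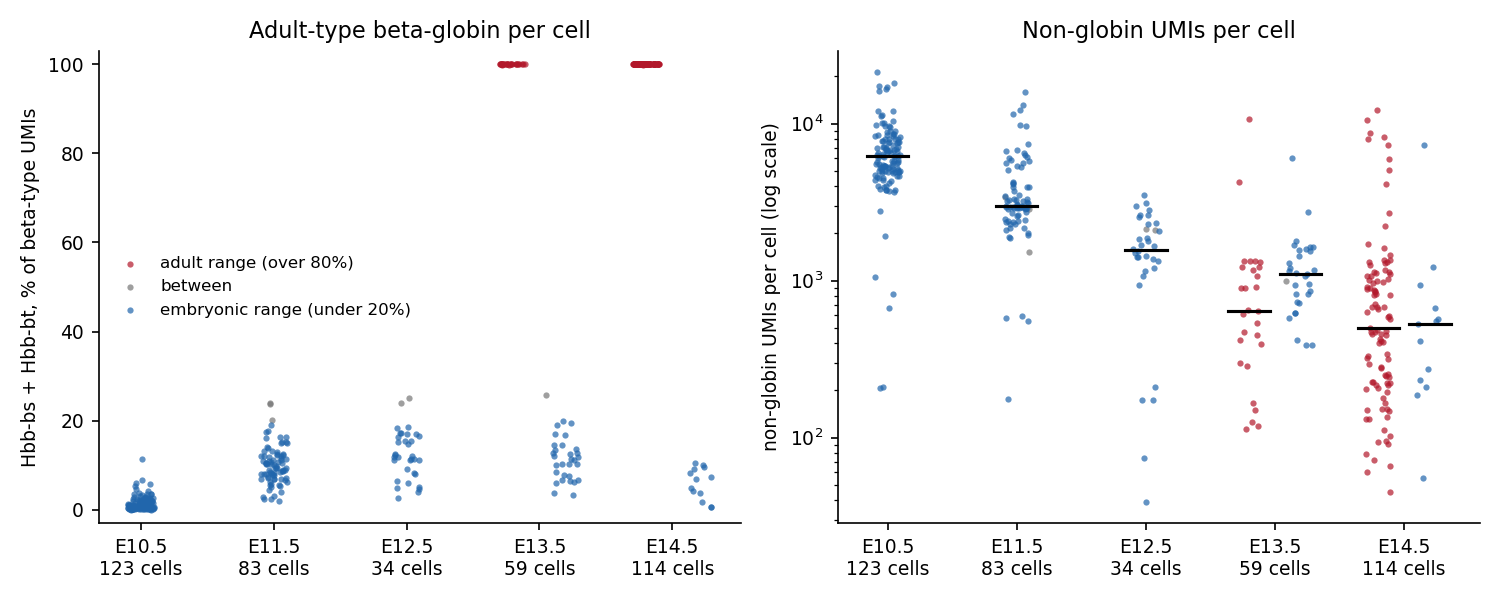
One point per erythroid cell, by stage: the adult-type share of beta-type UMIs in percent (one panel) and non-globin UMIs on a log scale (the other, with black bars at medians of a range). The adult range is drawn left of the embryonic range at E13.5 and E14.5, and no cell lies between 25.7% and 99.9% adult-type share at E13.5.

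Within the embryonic range the globins also differed by stage, in part against the sum over all cells. The adult beta-type share there was 1.49%, 9.88%, 12.3%, 11.2% and 7.79% in stage order, so it was highest at E12.5. In UMIs per cell it came to 64.0, 695, 768, 465 and 162. The rest of the same libraries, which the rule itself keeps low in globin, had 0.0506, 0.273, 0.0670, 2.69 and 4.90 adult beta-type UMIs per cell. Hbb-bh1 was lower at each later stage as a share of Hbb- UMIs, at 22.8%, 6.82%, 2.81%, 0.526% and 0.282%. Hba-x held 52.2%, 33.8%, 21.2%, 8.70% and 21.1% of Hba- UMIs, so the 13 embryonic-range cells of E14.5 were at the level of E12.5 and not below E13.5. In the adult range embryonic transcripts were nearly absent. Hbb-y had 29 UMIs in 28 cells at E13.5 and 18 UMIs in 101 cells at E14.5, which is 1.04 and 0.178 UMIs per cell, against 1.01 and 0.674 per cell in the rest of those libraries. Hba-x had 1 and 4 UMIs there, which is 0.0357 and 0.0396 per cell, against 0.0512 and 0.107 in the rest. These levels were at or under those of the rest apart from the small excess of Hbb-y at E13.5. Hbb-bh1 was above the rest on few UMIs: it had 4 UMIs in the adult range at E13.5, all in 1 cell, and 3 UMIs in 3 cells at E14.5, which is 0.143 and 0.0297 per cell, against 0.00566 and 0.00248 in the rest.

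Non-globin UMIs per cell were fewer at each later stage. Members had a median of 6170.0, 2975, 1619, 943 and 516.5 non-globin UMIs in stage order, and 1736, 1056, 580.0, 399 and 280.5 detected genes. Their total UMIs had medians of 13004, 14639, 13195, 7546 and 4900.5. Depth differed between libraries, with medians of 6430.5, 11864, 10070, 9330 and 7053 UMIs per deposited barcode. Cells at E14.5 ranged from 45 to 12136 non-globin UMIs, and the highest of them held markers of other types. Without marker-holding barcodes the E14.5 median was 289. Thinned to 500 non-globin UMIs per cell, with 2, 1, 5, 14 and 56 shallower members left out, medians of 320.0, 306.5, 271, 253 and 312 genes were seen, against 369, 367, 350.0, 334 and 334 in the rest. At equal depth, members thus had fewer genes than the rest at every stage, by the smallest margin at E14.5, where 40 members held other-type markers. Globin made up a median of 52.5%, 76.2%, 87.6%, 87.3% and 88.6% of a member's UMIs, a value that the rule itself bounds from below. Mitochondrial genes held a median of 2.60%, 1.08%, 0.585%, 1.43% and 2.92% of non-globin UMIs. The higher values at E13.5 and E14.5 belonged to the adult range, which had 3.18% at E13.5 against 0.847% in the embryonic range, and 3.02% against 0.753% at E14.5. Ribosomal protein genes held 33.8%, 24.4%, 23.2%, 24.6% and 26.1% in stage order.

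Maturation genes were compared as CPM of non-globin UMIs, on the sum of all cells of a stage or range. A gene is called higher or lower where it had at least 50 CPM in either sum, differed at least 2-fold and the interval of the ratio excluded 1. These calls compare libraries, and since the non-globin total per cell differed so much, a higher CPM need not mean more transcripts per cell. UMIs per cell are given beside CPM for that reason, but they were not corrected for the depth of the library. Per 1000000 UMIs of all kinds, globin included, 1333 genes had at least 50 CPM at E14.5 or E10.5. Of these, 53 were at least 2-fold higher at E14.5 than at E10.5 and 1028 lower. Their median log2 ratio was -1.69, and that for E12.5 in the embryonic range was -2.68. The directions below therefore hold relative to the non-globin RNA, and are given again relative to all UMIs where they turn. From all cells, 671 of 3021 genes (22.2%) were higher at E14.5 than at E10.5 and 609 (20.2%) lower, with a median log2 ratio of -0.16. Of these cells, 101 of 114 at E14.5 were in the adult range and 123 of 123 at E10.5 in the embryonic range. All-cell ratios between these stages therefore also compare the 2 globin ranges. Without marker-holding barcodes 630 of 3202 (19.7%) were higher and 269 (8.4%) lower, with a median of 0.30. In the embryonic range alone, 416 of 2691 genes (15.5%) were higher at E12.5 than at E10.5 and 435 (16.2%) lower, with a median of -0.29. That comparison sets the stage with no marker-holding members against E10.5. For E13.5 against E10.5 within the embryonic range the counts were 440 of 3149 (14%) higher and 405 (12.9%) lower, with a median of -0.02, and without marker-holding barcodes 344 of 2616 (13.1%) higher and 273 (10.4%) lower. The corresponding comparison for E14.5 had 13 cells, below the 20 required, and was not made.

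Haem synthesis, which supplies the prosthetic group of globin, was split between its steps. Alas2, the erythroid enzyme of the first step, had 1780.4, 4665, 6404, 3248 and 3567 CPM in stage order. Per cell this was 11.96, 18.5, 10.6, 4 and 4.37 UMIs. On the CPM scale Alas2 was thus lowest at E10.5, and per cell it was highest at E11.5. Without marker-holding barcodes it had 6274 CPM at E14.5. Fech, the ferrochelatase that inserts iron in the last step, had 645, 2143, 2264, 1431 and 1561 CPM, and like Alas2 was called higher at E14.5 than at E10.5, with log2 ratios of 1.28 (1.04 to 1.51) for Fech and 1.002 (0.85 to 1.15) for Alas2. Relative to all UMIs these ratios were 0.11 and -0.16. Without marker-holding barcodes the E14.5 level of Fech was 2276 CPM. Alad, the enzyme of the second step, went the other way, at 3141, 3495, 2813, 358 and 745 CPM and 21.1, 13.9, 4.68, 0.441 and 0.912 UMIs per cell. Its log2 ratio at E14.5 against E10.5 was -2.08 (-2.37 to -1.79). Tmem14c, a mitochondrial porphyrinogen carrier, had 1801, 1225, 655, 124 and 322 CPM and a log2 ratio of -2.48 (-2.94 to -2.05). Without marker-holding barcodes Alad and Tmem14c had 399.8 and 92.3 CPM at E14.5, the second being 3 UMIs. Of 10 genes of the list at 50 CPM, 2 were higher at E14.5 than at E10.5 and 5 lower, with a median log2 ratio of -1.27, against 2 higher and 2 lower of 10 at E12.5 and 0 higher and 5 lower of 10 at E13.5 within the embryonic range. The 5 lower genes included Alad, Uros and Cpox, 3 enzymes between the first and the last step, and Tmem14c. Without marker-holding barcodes 2 of 11 were higher and 4 lower at E14.5. In the embryonic range the counts were then 2 higher and 2 lower of 11 at E12.5, and 0 higher and 5 lower of 11 at E13.5. Over all genes, with those barcodes kept, 22.2% were higher and 20.2% lower at E14.5. In the embryonic range these shares were 15.5% and 16.2% at E12.5 and 14% and 12.9% at E13.5.

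Ferritin transcripts, which encode the iron storage shell, took a large part of the non-globin RNA. Fth1, the heavy chain, had 15493, 36196, 61229.5, 35482 and 13859 CPM in stage order, and Ftl1, the light chain, 13952, 27443, 49129, 75424 and 25827 CPM. At E12.5 the whole iron list summed to 115789 CPM (113001 to 118629), over 1 in 10 non-globin UMIs. Within the embryonic range the log2 ratio of E12.5 over E10.5 was 1.93 (1.88 to 1.99) for Fth1 and 1.75 (1.69 to 1.81) for Ftl1, but 0.080 and -0.10 relative to all UMIs. Per cell Fth1 had 104, 144, 102, 43.7 and 17.0 UMIs and Ftl1 93.7, 109, 81.7, 92.9 and 31.6 in all cells. Within the embryonic range Ftl1 was highest at E13.5 in CPM and per cell, at 113707 CPM and 146 UMIs per cell, against 93.7 UMIs per cell at E10.5, with a log2 ratio of 1.31 relative to all UMIs. Fth1 in that range had 71.0 UMIs per cell at E13.5, against 104 at E10.5. At E14.5 without marker-holding barcodes Fth1 and Ftl1 had 22606 and 52931 CPM, the iron list summed to 79535 CPM in place of 43754 CPM, and Ftl1 passed the call for higher than at E10.5, with a log2 ratio of 1.81. Slc25a37 (mitoferrin), which brings iron into mitochondria, had 828, 1685, 1681, 592 and 1432 CPM, and 1107 CPM at E14.5 without those barcodes. Of the list, 4 of 9 genes were higher and 1 lower at E12.5 in the embryonic range, beside 15.5% and 16.2% of all genes. Without marker-holding barcodes 3 of 9 were higher and 1 lower there. From all cells 1 of 10 was higher and 0 lower at E14.5, beside 22.2% and 20.2% of all genes. Without those barcodes 2 of 9 were higher and 0 lower at E14.5.

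Of the membrane and skeleton list, 10 of 16 genes were higher at E12.5 than at E10.5 in the embryonic range and 0 lower, with a median log2 ratio of 1.26. Over all genes 15.5% were higher and 16.2% lower, with a median of -0.29. Relative to all UMIs the median of the list was -0.41, and per cell the list had 12.9 UMIs at E12.5 against 26.4 at E10.5. Without marker-holding barcodes (24 at E10.5 and 0 at E12.5) 8 of 16 were higher and 0 lower, with a median of 1.06. Slc4a1, the band 3 anion exchanger, had 435, 785, 1115, 330.3 and 308 CPM in all cells in stage order, and its E12.5 ratio in the embryonic range was 1.42 (1.01 to 1.82), or -0.43 relative to all UMIs. Epb41, a protein of the membrane skeleton, was at 2.89 (2.34 to 3.41), and Kel, a blood group peptidase, at 3.22 (2.51 to 3.92). At E14.5, 4 of 17 genes of the list were higher than at E10.5 and 2 lower, beside 22.2% and 20.2% of all genes, so the share of higher genes was near that of the whole table. Without marker-holding barcodes 3 of 17 were higher and 1 lower, and Slc4a1 had 277 CPM. Tspo2, a red cell translocator protein, had 22 UMIs at E14.5 and 0 at E10.5, where the floor of 3 counts makes it at least 5.44 higher on the log2 scale. Of these UMIs, 9 were outside marker-holding barcodes.

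For transcription factors of the lineage the E14.5 counts differed with and without marker-holding barcodes, and few passed the calls in the embryonic range. Klf1, an activator of adult beta-type globin and many red cell genes, had 477, 633, 372, 151 and 351 CPM in stage order, or 3.20, 2.52, 0.618, 0.186 and 0.430 UMIs per cell. Gata1, the master regulator of the lineage, had 157, 161, 88.5, 13.8 and 78.8 CPM, the fourth value being 1 UMI. Of 12 factors at 50 CPM, 4 were higher and 2 lower at E14.5 than at E10.5, beside 22.2% and 20.2% of all genes. Without marker-holding barcodes these counts were 0 higher and 1 lower of 10, the lower gene being Klf1 at 185 CPM (6 UMIs), while Gata1 had 2 UMIs, and Lmo2, one of the 4, had 154 CPM in place of 286. In the embryonic range at E12.5 Nfe2, at 2.22 (1.37 to 3.00), and Klf3, at 2.34 (1.49 to 3.13), were the 2 of 10 that were higher, and 0 were lower. Over all genes 15.5% were higher and 16.2% lower in that comparison. Without marker-holding barcodes the counts of the list were the same. No gene of the progenitor list (Kit, Gata2, Myb and others) reached 50 CPM in any of these comparisons.

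Genes of terminal maturation had the highest share of higher calls at E14.5 among the lists with 10 or more genes at 50 CPM. Of the shorter lists, erythropoietin and JAK-STAT response had 2 of 2 genes higher, and cell cycle exit 5 of 8. Of 15 genes at 50 CPM, 11 were higher at E14.5 than at E10.5 and 0 lower, with a median log2 ratio of 2.02. Without marker-holding barcodes 10 of 15 were higher, with a median of 2.12, beside 19.7% and a median of 0.30 over all genes. Within the embryonic range 11 of 15 were higher at E12.5 (median 2.12, and 12 of 15 without marker-holding barcodes). At E13.5 there 7 of 15 were higher (median 1.51, and 6 of 14 without those barcodes), and 0 were lower at either stage. Over all genes 15.5% were higher at E12.5 and 14% at E13.5. Relative to all UMIs the medians were 0.25 at E14.5, 0.39 at E12.5 and -0.85 at E13.5. Bnip3l, the mitochondrial receptor for mitophagy in reticulocytes, had 421, 1637, 3326, 2464 and 1927 CPM in stage order. Tmcc2 had 27.8, 215, 708, 110.1 and 429.7 CPM. At E14.5 against E10.5 the log2 ratios were 2.19 (1.96 to 2.43) for Bnip3l and 3.95 (3.23 to 4.71) for Tmcc2. Without marker-holding barcodes the E14.5 levels of Bnip3l and Tmcc2 were 3076 and 923 CPM, above those with them. In UMIs per cell the stages differed less: Bnip3l had 2.83, 6.51, 5.53, 3.03 and 2.36 in stage order, so the E14.5 cells held about as many Bnip3l UMIs as the E10.5 cells in a much smaller non-globin total. Summed over the list, cells had 16.8, 29.8, 21.2, 9.92 and 11.03 UMIs.

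**Figure D3:**
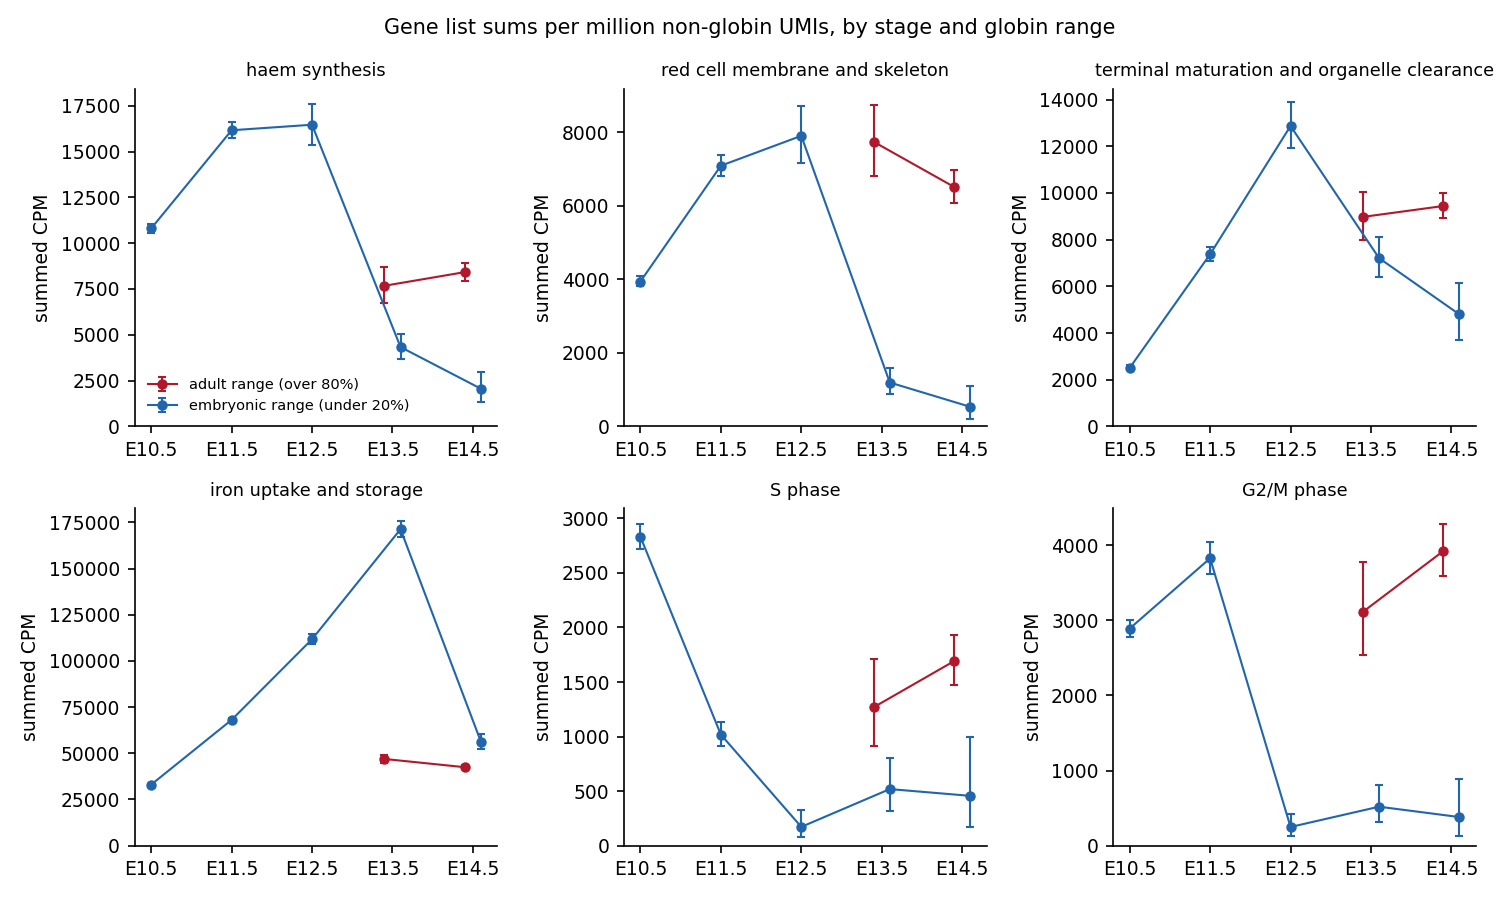
Summed level of 6 gene lists in CPM of non-globin UMIs (linear axes from 0) by stage, in the adult range (red, E13.5 and E14.5) and the embryonic range (blue), with 95% Poisson intervals. Terminal maturation genes of the embryonic range sum to 2504 CPM at E10.5 and 12867 CPM at E12.5, whereas S phase genes sum there to 2832 and 172 CPM.

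Red cell enzymes and antioxidant genes differed between CPM and UMIs per cell. Bpgm, which makes the bisphosphoglycerate that lowers the oxygen affinity of haemoglobin, had 677, 1931, 3114, 1486 and 1504 CPM in all cells in stage order. Car2, carbonic anhydrase II, had 2741, 7602, 7236, 1748 and 2858 CPM. Gpx1, glutathione peroxidase, had 3982, 13418, 18965, 8726 and 12039.7 CPM. In CPM all 3 were higher at E11.5 and E12.5 than at E10.5, and Car2 was back near its E10.5 level at E14.5 with a log2 ratio of 0.06 (-0.10 to 0.21). Relative to all UMIs the E14.5 ratio of Car2 was -1.10. At E12.5 in the embryonic range 5 of 10 enzyme genes were higher and 0 lower (median 1.11), and 7 of 11 antioxidant genes were higher and 0 lower (median 1.504). Over all genes 15.5% were higher and 16.2% lower, with a median of -0.29. Relative to all UMIs the medians of the enzyme and antioxidant lists were -0.37 and -0.43, and the E12.5 ratio of Car2 was -0.37. Per cell the enzyme list had 30.7 UMIs at E12.5 against 47.9 at E10.5, and the antioxidant list 72.1 against 91.2. Without marker-holding barcodes 5 of 10 enzyme genes were higher and 1 lower at E12.5, and 7 of 11 antioxidant genes were higher and 0 lower. At E14.5 from all cells 1 of 11 enzyme genes was higher and 3 lower, and 1 of 9 antioxidant genes, Gpx1, was higher and 1 lower. Over all genes 22.2% were higher and 20.2% lower. Prdx2, peroxiredoxin 2, had 7062, 12761, 17638, 7763 and 7707 CPM. Without marker-holding barcodes 1 of 10 enzyme genes was higher and 1 lower at E14.5, and 2 of 11 antioxidant genes were higher and 1 lower. Under that setting Bpgm and Car2 both had 2983 CPM, Gpx1 had 15070 CPM and Prdx2 11318 CPM.

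Cell cycle genes were nearly absent from members at E12.5, with 10 UMIs of the S phase list and 14 of the G2/M list in 34 cells. The S phase list summed to 2832, 1000.2, 177, 853 and 1576 CPM in stage order, and the G2/M list to 2889, 3743, 248, 1693 and 3588 CPM. Of the embryonic range, 11 of 15 S phase genes were lower at E12.5 than at E10.5 and 0 higher, and 10 of 16 G2/M genes were lower and 0 higher. Over all genes 16.2% were lower and 15.5% higher. Without marker-holding barcodes 10 of 15 S phase and 10 of 17 G2/M genes were lower and 0 higher. Mcm7, a subunit of the replicative helicase, had 171 UMIs at E10.5 and 0 at E12.5, at least 1.85 lower on the log2 scale, and Rrm2, which makes deoxynucleotides, had 293 and 0, at least 2.63 lower. The E14.5 sums depended on the marker-holding barcodes for S phase: without them the list summed to 277 CPM, while the G2/M list summed to 2829.6 CPM. Of that G2/M sum, Ube2c alone made up 2091 CPM. The median log2 ratio of the G2/M list against E10.5 was -1.25 under that setting. At E14.5 against E10.5, 8 of 15 S phase genes were lower and 0 higher, against 2 lower and 3 higher of 18 G2/M genes. Over all genes 20.2% were lower and 22.2% higher. Without marker-holding barcodes 6 of 15 S phase genes were lower and 0 higher, and 4 of 17 G2/M genes were lower and 2 higher, beside 8.4% lower and 19.7% higher over all genes. Ube2c, a ubiquitin carrier of the anaphase promoting complex, was among the higher ones at 290.5, 573, 88.5, 716 and 1397 CPM in stage order, and its E14.5 level was 2091 CPM without marker-holding barcodes. Mki67 and Top2a did not share that level, at 208 and 251 CPM at E14.5, and at 92.3 and 30.8 CPM without those barcodes.

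**Figure D4:**
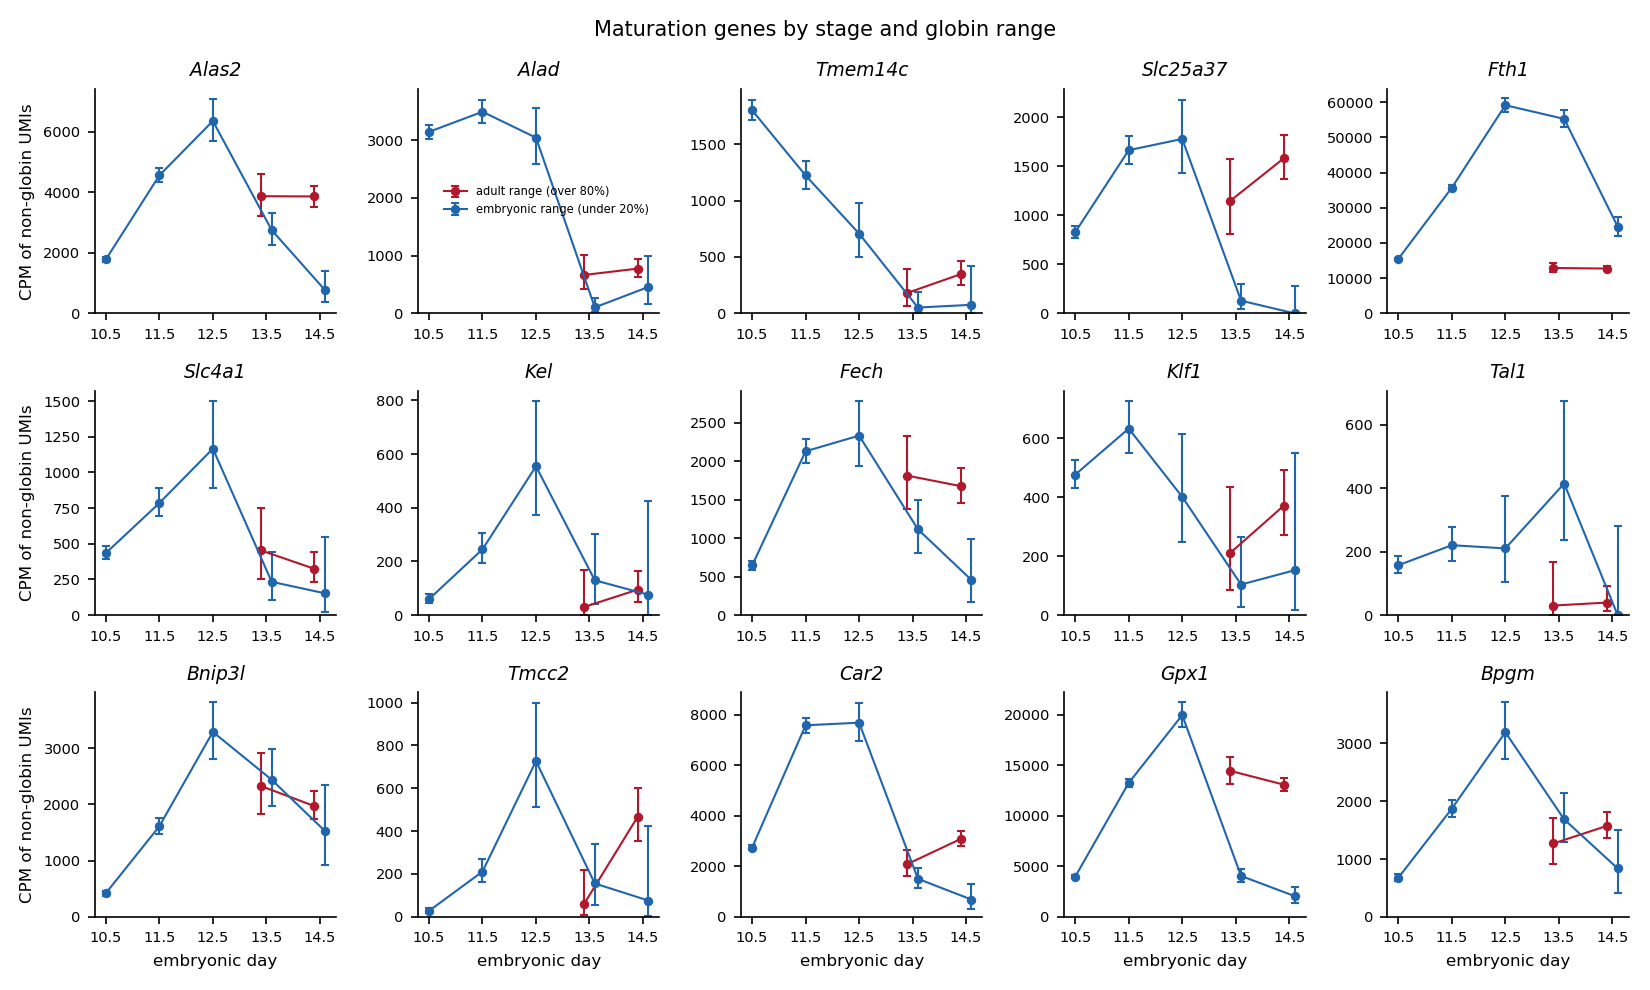
Levels of 15 maturation genes in CPM of non-globin UMIs (linear axes from 0, a scale per gene) by stage, in the adult range (red, E13.5 and E14.5) and the embryonic range (blue), with 95% Poisson intervals. Bnip3l in the embryonic range is lowest at E10.5, at 421 CPM, and Alad there is lowest at E13.5, at 104 CPM.

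At E13.5 the adult and embryonic ranges were sampled in 1 library with 28 and 30 cells, so stage and library do not separate them. Of 3625 genes, 168 (4.63%) were higher in the adult range and 72 (1.99%) lower, with a median log2 ratio of 0.22. The ranges were cut by beta-type globin alone, and the genes below took no part in that. In the adult range 1 barcode, with 28.5% globin and 8 markers of other types, marked as a likely doublet, held 32.5% of the non-globin UMIs. Without it 143 of 2983 genes (4.79%) were higher and 44 (1.48%) lower, and the median log2 ratio over all genes was 0.79. Ratios are also given without it. Leaving out all marker-holding barcodes left 18 adult-range cells, too few for the comparison.

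Gpx1, Slc25a37, Alad and Ube2c were among the genes called higher in the adult range at E13.5. Gpx1 had 14442 CPM in the adult range and 4045 CPM in the embryonic range at E13.5, a log2 ratio of 1.84 (1.57 to 2.11), and 2.40 without the doublet. At E14.5 the embryonic range was 13 cells, of which 1 barcode with 41.8% globin and 8 markers of other types held 55.6% of the non-globin UMIs, so levels there are also given without marker-holding barcodes (63 adult-range and 11 embryonic-range cells). Gpx1 had 13077 CPM in the adult range and 2055 CPM in the embryonic range at E14.5, and 17482 and 2649 CPM without them. Slc25a37 had 1148 CPM in the adult range and 129.7 CPM in the embryonic range at E13.5, a ratio of 3.15 (1.80 to 4.85) and 3.68 without the doublet. At E14.5 it had 1581 CPM in the adult range, 1322 CPM without marker-holding barcodes, and 0 UMIs in the 13 cells of the embryonic range. Alad was also higher in the adult range, at 665 CPM against 104 CPM, with a ratio of 2.68 (1.12 to 4.68) and 3.25 without the doublet. Ube2c had 1480.4 CPM against 77.8 CPM, the second being 3 UMIs (4.25, 2.62 to 6.58, and 4.79 without the doublet). At E14.5 it had 1534 CPM in the adult range and 1 UMI in the embryonic range, which was in a marker-holding barcode.

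Nudt4, Malat1, Fth1 and Ftl1, abundant in the embryonic range, were among the 72 genes lower in the adult range. Nudt4, a diphosphoinositol polyphosphate phosphohydrolase, had 363 CPM in the adult range and 21549 CPM in the embryonic range at E13.5, where it was found in 8 of 28 and 30 of 30 cells. Its log2 ratio was -5.89 (-6.85 to -5.08), and -5.45 without the doublet. Within the embryonic range Nudt4 had 1891, 4197, 9999, 21549 and 2892 CPM in stage order, the last being 5675 CPM without marker-holding barcodes. Malat1, a nuclear long non-coding RNA, had 2417 CPM in the adult range and 43123 CPM in the embryonic range, a ratio of -4.16 (-4.50 to -3.83) and -3.63 without the doublet, beside 5719 CPM in the rest of the E13.5 library. At E14.5 Malat1 had 6649 CPM in the adult range and 15449 CPM in the embryonic range, and 6611 and 26296 CPM without marker-holding barcodes. Fth1 and Ftl1 were lower in the adult range as well, with ratios of -2.10 (-2.25 to -1.95) and -1.91 (-2.01 to -1.81), and -1.61 and -1.40 without the doublet. Ftl1 had 30303 CPM in the adult range and 113707 CPM in the embryonic range.

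The other 3 genes described from this group had few UMIs in the adult range. Pdzk1ip1, which encodes a small membrane protein, had 1 UMI there and 74 in the embryonic range, a ratio of -5.99 (-11.31 to -3.47) and -5.42 without the doublet. Hsd3b6, a steroid dehydrogenase isoform, had 5 and 96 UMIs (-4.04, -5.70 to -2.77, and -3.47 without the doublet), and 151 CPM in the adult range against 2489 CPM in the embryonic range. Hmox1, haem oxygenase 1, had 0 UMIs in the adult range and 44 in the embryonic range, held by 15 of 30 cells, and was at least 3.65 lower on the log2 scale, or at least 3.09 lower without the doublet. Hmox1 in the embryonic range had 0, 3.10, 210.3, 1141 and 228 CPM in stage order, the last being 3 UMIs, against 14.54 to 42.2 CPM in the rest. All 11 of its UMIs in that range at E12.5 were in 1 cell, so the E13.5 level is the first that rests on several cells. By list, 2 of 9 haem genes were higher in the adult range and 0 lower, 3 of 14 membrane genes were higher and 0 lower, and 3 of 11 G2/M genes were higher and 0 lower. Over all genes 4.63% were higher and 1.99% lower. Of 8 erythroid transcription factors, 0 were higher and 2 lower, Tal1 among them, both with and without the doublet. Of 15 terminal maturation genes, 1 was higher and 2 (Map1lc3b and Pim1) were lower, and Bnip3l had 2326 CPM in the adult range against 2438 CPM in the embryonic range, with a ratio of -0.07 (-0.52 to 0.38) that turned to 0.44, also not called, without the doublet. Without it, too, 6 of 8 haem genes and 4 of 14 membrane genes were higher and 0 lower in either list, and 3 of 11 G2/M genes were higher and 0 lower. Over all genes 4.79% were then higher and 1.48% lower. The median log2 ratio was then 2.24 for haem, 0.79 for membrane and 0.47 for G2/M genes, beside 0.79 over all genes. Map1lc3b (-0.54) and Pim1 (-1.21) no longer passed the call, so that 3 of 15 terminal maturation genes, Gabarapl2 (1.11) and Rnf10 among them, were higher and 0 lower.

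**Figure D5:**
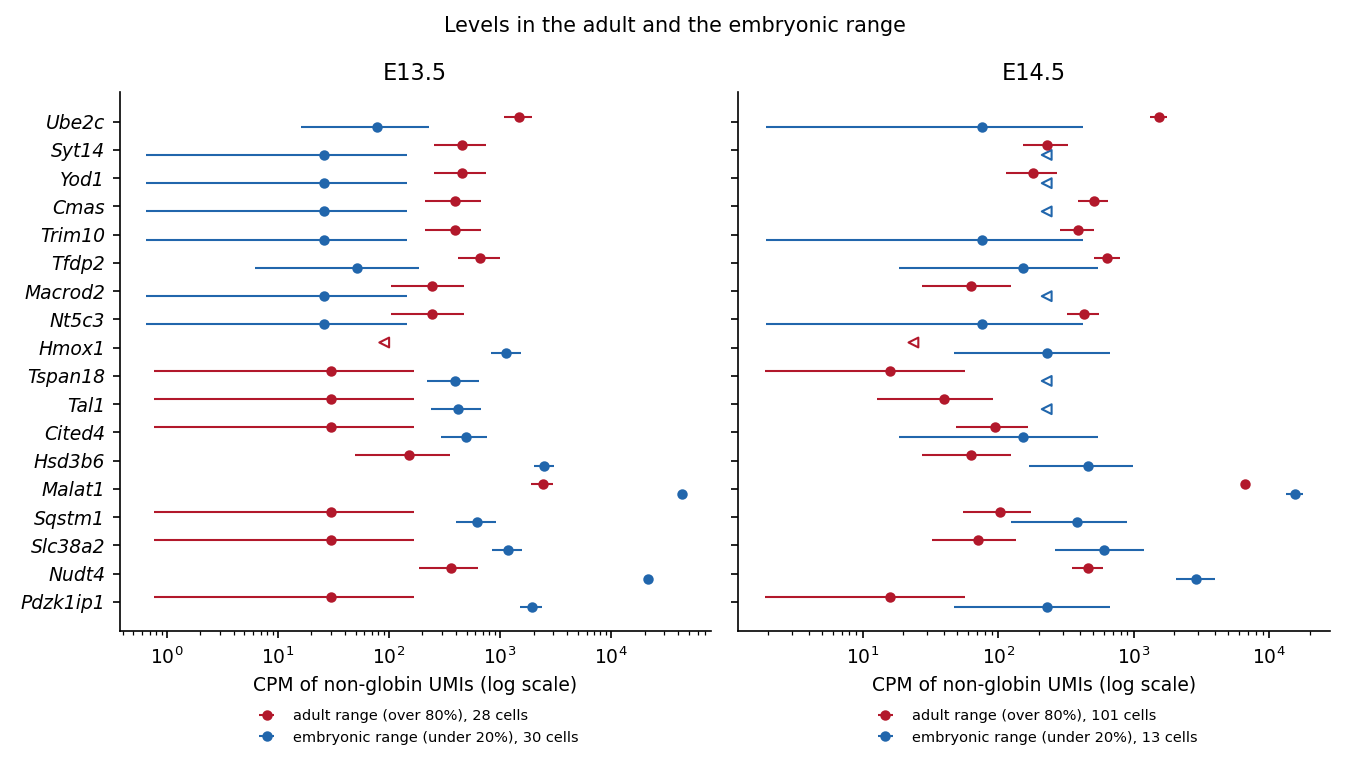
Levels of 18 named genes in the adult range (upper point of each pair) and the embryonic range (lower point) at E13.5 and E14.5, in CPM of non-globin UMIs on a log scale with Poisson intervals. Open left-pointing triangles mark 0 counts, drawn at the floor. Ube2c lies higher in the adult range and Nudt4 and Malat1 in the embryonic range at E13.5, and at E14.5 as well, where 1 barcode holds 55.6% of the embryonic range's non-globin UMIs and its Ube2c level is 1 UMI.

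Outside the lists, the genes with the most different levels between the last and the first stage were chosen by the size of the ratio among genes enriched in erythroid cells. Mkrn1, a ubiquitin ligase, had 140.4, 600.1, 1839.9, 1982 and 3552 CPM in stage order. Its log2 ratio at E14.5 against E10.5 was 4.66 (4.37 to 4.97), and per cell it had 0.943, 2.39, 3.06, 2.44 and 4.35 UMIs, so it was higher on both scales, and it had 7627 CPM at E14.5 without marker-holding barcodes. Fam220a had 36.3, 127, 106, 468 and 1046 CPM (4.85, 4.27 to 5.47), and 2184 CPM at E14.5 without those barcodes. Among the lowest, Acp5, an acid phosphatase, had 765, 1112, 1327, 27.5 and 50.1 CPM (-3.93, -5.25 to -2.88) and Cited4, a transcriptional co-regulator, had 1352, 1231, 1061, 275 and 100.3 CPM (-3.75, -4.63 to -3.0004). Without marker-holding barcodes Acp5 had 0 UMIs and Cited4 3 UMIs at E14.5. Krt15, a keratin, had 281, 182, 142, 0 and 0 CPM. In CPM of non-globin UMIs Acp5 was thus highest at E12.5 and low from E13.5 on. In the embryonic range too it was low at E13.5, with 51.9 CPM, and Krt15 had 0 CPM there. Relative to all UMIs the log2 ratio of Acp5 against E10.5 in that range was -1.03 at E12.5 and -5.60 at E13.5, so on that scale it was not higher at E12.5. In the embryonic range at E12.5 the highest ratio over E10.5 was that of Fam174b, at 34 and 2 UMIs (8.07, 6.11 to 11.17). The theta-type globin genes Hbq1b and Hbq1a, which the rule did not count as globin, had 73.8, 242, 336, 110.1 and 165 CPM and 0, 42.4, 177, 193 and 71.6 CPM in stage order, of which the E14.5 values are 4 and 5 UMIs without marker-holding barcodes.

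Across stages, 32 genes were at 50 CPM or more and at least 10-fold over the rest of the library at all 5 stages, which describes what members shared beyond globin. They included Alas2 and Fech, Slc4a1, Kel and Rhd, Car2, Bpgm and Blvrb, Klf1, Fam210b, Ube2l6, Nudt4, Hsd3b6 and Trim10.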

How the data were processed

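The deposited files hold UMI counts per gene and barcode for 6 libraries of 10x Chromium 3′ RNA-seq, unnormalized. The authors made them with Cell Ranger 3.0.2 on mm10, per the submitters' processing notes. Library totals were 37606947 to 52146419 UMIs in the 5 in vivo libraries. The barcode rule was applied to the deposited counts with Python 3.11.15, numpy 2.4.6, scipy 1.17.1 and pandas 2.3.3. Counts were summed per stage and, for ranges of the adult share of beta-type UMIs (at least 20 such UMIs per cell), per range. CPM were computed on non-globin UMIs. Ratios have exact conditional binomial 95% intervals, levels Poisson and shares Clopper-Pearson intervals. UMIs remove amplification copies, but the intervals cover counting error only. Since there is 1 library per stage, no test between stages was run. Bounds replace a count of 0 by a floor of 3 counts. No doublets were removed. The automatic threshold of Scrublet in scanpy 1.11.5 called 2 of 6308 barcodes at E10.5 and did not work there, so the highest scores were marked instead, at 0.8% of barcodes per 1000. This marked 6, 1, 1, 1 and 2 members, and leaving them out is an alternative.

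The members, the 15 gene lists and the 7 marker lists were chosen with earlier results of these data known. Genes named are globins, up to 4 with the largest and smallest ratio per list, and the 10 highest and lowest called ratios per comparison among genes at least 2-fold over the rest of the library, of which those with larger counts are described. Of the genes so named, 2 are not reported here. Malat1 and Fth1 as a series over stages, Hbq1a, Hbq1b, Mki67 and Top2a were added after their values were seen. A planned comparison of the embryonic range at E14.5 with E10.5 had 13 cells, and E12.5 and E13.5 were used in its place. Alternatives were the limits on globin, mitochondrial share, UMIs, CPM, fold and ranges, doublets or marker-holding barcodes left out, CPM of all UMIs, centred ratios, means over cells and thinned cells. Per-sample columns not used numbered 0.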

Additional observations from a re-analysis of the deposited data

Results flagged for a closer look

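The library of stem cell-derived somatic cells, which is not part of the stage comparisons, held 6 globin UMIs among 50585914, above the limit of 3 that a count of 0 allows. Of these, 5 were Hba-a2 and 1 was Hbb-bt, each in a barcode of its own, and none of those barcodes met the erythroid rule. Hba-a1, Hba-x and Hbb-y were at 0 there.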

How the results depend on the processing

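No paired analysis was possible because each stage is 1 library. The adult share of beta-type UMIs at E10.5 was 1.64% at 50% globin or more, 1.55% without barcodes holding 2 or more other-type markers and 1.44% as a mean over cells. At E11.5 it was 10.3% without those barcodes and 10.2% as a mean over cells, and at E12.5 13.04% without doublets and 12.47% as a mean. At E13.5 it was 46.0% at 50% globin, 47.8% at 10%, 46.1% without doublets, 38.9% without marker-holding barcodes and 53.6% as a mean, and at E14.5 91.6%, 90.7% (10% globin), 86.7% (marker-holding out) and 89.3% (mean). Without marker-holding barcodes E14.5 kept 74 members with a median of 289 non-globin UMIs, and 269 genes were lower than at E10.5. Relative to all UMIs, 53 of 1333 genes were higher and 1028 lower at E14.5. In the embryonic range the counts were 24 and 1133 of 1307 at E12.5 and 30 and 1167 of 1311 at E13.5. For the adult range at E13.5, 46 of 479 were lower. At 4-fold, E14.5 had 386 higher and 220.0 lower, E12.5 258 and 218, E13.5 217 lower, and the adult range 79 higher and 45 lower. For E14.5, 1341 genes were higher at 20 CPM, 1580 with no minimum, and 1044 lower by means over cells. Centring gave 284 lower at E12.5. In the adult range at E13.5, 41 were lower at 50% globin, 159 at 10%, 44 without doublets and 167 by means over cells. The set of genes at the CPM minimum differs between most of these settings, so the counts do not share a total.
Relative to all UMIs these log2 ratios of called genes turned sign against E10.5: at E14.5 Alas2 (-0.16), Bpgm (-0.0084), Hbq1b (-0.0031), Malat1 (-0.029) and Map1lc3b (-0.078). In the embryonic range at E12.5 they were Alas2 (-0.019), Blvrb (-0.61), Car2 (-0.37), Ftl1 (-0.10), Gclm (-0.064), Pim1 (-0.50), Prdx2 (-0.51), Rhag (-0.39), Rhd (-0.71), Slc25a37 (-0.75), Slc38a2 (-0.27), Slc4a1 (-0.43) and Ube2l6 (-0.24). At E13.5 there they were Bpgm (-0.40), Epb41 (-0.29), Gabarapl2 (-0.20), Pim1 (-0.43) and Tal1 (-0.32). The ratio of Mkrn1 in the adult over the embryonic range was -0.065 at 10% globin. Why these values moved was not tested beyond the fact that all-UMI totals include globin.
Of the other results over the named genes, 208 lost the call and 158 gained one. The remaining 3099 kept call and direction or stayed without a call. For genes without a call a change of sign was not counted. Under 20 cells remained for an embryonic limit of 10% (10 and 10 cells) and for the E13.5 ranges without marker-holding barcodes (18 cells) or at limits of 10% and 90% (10 cells), so these were not run. Median depths of 516.5 to 6170.0 non-globin UMIs and sums of 13 to 123 cells limit what low-count genes can show.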

Other observations

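Metallothionein transcripts, which encode small proteins that bind zinc and copper, were highest in the erythroid cells of the first stage. Mt1 had 2739, 912, 1044, 661 and 1726 CPM of non-globin UMIs in stage order, against 25.1, 89.4, 145, 255 and 421 CPM in the rest of the same libraries. Mt2 had 1622, 427, 460.0, 110.1 and 945 CPM. Within the embryonic range Mt1 had 259 CPM at E13.5, a log2 ratio of -3.40 (-4.46 to -2.52) against E10.5, and the adult range of E13.5 had 1148 CPM, with 14 of its 38 Mt1 UMIs in 1 barcode. At E14.5 Mt1 had 1261 CPM without marker-holding barcodes. Mt1 was added beside Mt2 after its values were seen.

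Bcl2l1, which encodes the survival protein BCL-XL, had 30.3, 252, 513, 344 and 437 CPM in stage order. It was higher in the adult range of E13.5, at 634 CPM, than in the embryonic range, at 104 CPM, with a log2 ratio of 2.61 (1.05 to 4.62), and 3.18 without the likely doublet. Slc38a2, an amino acid transporter, and Sqstm1, an autophagy receptor, stood the other way round. Slc38a2 had 1 UMI in the adult range and 45 in the embryonic range of E13.5 (-5.27, -10.61 to -2.72, or at least 3.12 lower without the doublet, which held the 1 UMI), and Sqstm1 had 1 and 24 (-4.36, -9.73 to -1.75, and -3.80 without the doublet). In the embryonic range Slc38a2 had 210.3 CPM at E12.5 and 1167 CPM at E13.5. The nuclear RNA Neat1 had 2 UMIs in the adult range and 15 in the embryonic range (-2.69, -5.86 to -0.58, and -2.12 without the doublet), and so lay on the same side as Malat1, but at 50% globin or more its ratio was -2.04 and no longer passed the call.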
